A study of Mus musculus with 24 samples.

Results

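The 10 genes described here encode core and accessory proteins of the Polycomb repressive complexes of the mouse: Ezh1, Ezh2, Eed, Suz12 and Jarid2 of Polycomb repressive complex 2 (PRC2), and Bmi1, Ring1, Rnf2, Cbx6 and Cbx7 of Polycomb repressive complex 1 (PRC1). They were taken by symbol, 10 genes of the 55177 with a matched transcript, and the estimated counts of all their transcripts were summed in each of 24 RNA-seq libraries. All 10 passed the filter on low counts in every fit. The libraries came from primary cortical neurons of mouse embryos at embryonic day 16.5, and the series addresses the BAF (SWI/SNF) chromatin remodelling complex, of which Smarcc2 is a subunit. Every culture was silenced overnight with 1 µM tetrodotoxin and 100 µM D-AP5, which block sodium channels and NMDA receptors, and was then left at rest or depolarized with 50 mM KCl for 30 min. The mouse strain and the way in which guides and constructs entered the cells are not given in the sources used here.

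At 7 days in vitro (DIV7), wild-type cultures without a guide RNA received 0.1% DMSO and were at rest (2 libraries) or depolarized (2). The DIV18 controls had non-targeting CRISPR guides (NT; 2 resting and 2 KCl libraries). Smarcc2 knockout cultures of the same day received vector (3 and 3), the wild-type gene (WT; 2 and 3), the S586E form (3, rest only) or the S586A form (2, KCl only). Per the labels, the cortex of an embryo counted as a biological replicate. The p-values measure the spread between these samples. Poly(A) selection was used at DIV7 and rRNA depletion at DIV18, so culture day, RNA selection, guide delivery and DMSO cannot be told apart between the 2 days.

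PRC2 places methyl groups on lysine 27 of histone H3 through its catalytic subunits EZH1 or EZH2, which act together with EED and SUZ12. PRC1 adds ubiquitin to histone H2A through RING1 or RNF2 (RING1B), paired with a PCGF protein such as BMI1, and its CBX proteins read methylated lysine 27. In the developing nervous system EZH2 is known as the form of dividing progenitors and EZH1 as the form that persists in postmitotic neurons, and BAF complexes are known to oppose Polycomb repression.

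In GENCODE M21 on GRCm38 the PRC2 genes are Ezh1 (chr11:101191115-101226463, minus strand), Ezh2 (chr6:47530139-47595341, minus strand), Eed (chr7:89954654-89980983, minus strand), Suz12 (chr11:79993106-80034123, plus strand) and Jarid2 (chr13:44729474-44921643, plus strand). The PRC1 genes are Bmi1 (chr2:18677018-18686629, plus strand), Ring1 (chr17:34020792-34024680, minus strand), Rnf2 (chr1:151458004-151500955, minus strand), Cbx6 (chr15:79823896-79834688, minus strand) and Cbx7 (chr15:79915807-79971119, minus strand).

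Promoter windows are shown for some of the genes on which the comparisons below turn. Windows of Ezh1 and Ezh2 are given, whose balance differed between culture days, and of Suz12 and Jarid2, which were called after KCl or Smarcc2 loss. The window of Cbx6, which was also called after KCl at DIV7, is not shown. The windows shown are RefSeq sequences on GRCm38.p6, which share the coordinates of GENCODE M21 on GRCm38. They are read 5′ to 3′ on the strand of the gene from 250 bases before the start to 20 after it. Ezh1 (chr11:101226444-101226713) and Ezh2 (chr6:47595011-47595280) lie on the minus strand, and Suz12 (chr11:79992856-79993125) and Jarid2 on the plus strand. Jarid2 has a pair of windows, chr13:44730524-44730793 and chr13:44731021-44731290, whose starts are those of the transcripts Jarid2-210 and Jarid2-208. Capitals mark the letters TTTGGCGC or TTTCCCGC, common forms of the E2F motif of cell cycle genes.
Ezh1: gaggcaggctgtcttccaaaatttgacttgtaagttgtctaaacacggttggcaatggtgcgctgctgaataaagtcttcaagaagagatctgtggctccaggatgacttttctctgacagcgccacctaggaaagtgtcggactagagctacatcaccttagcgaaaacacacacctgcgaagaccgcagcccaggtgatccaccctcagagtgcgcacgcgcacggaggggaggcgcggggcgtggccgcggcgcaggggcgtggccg
Ezh2: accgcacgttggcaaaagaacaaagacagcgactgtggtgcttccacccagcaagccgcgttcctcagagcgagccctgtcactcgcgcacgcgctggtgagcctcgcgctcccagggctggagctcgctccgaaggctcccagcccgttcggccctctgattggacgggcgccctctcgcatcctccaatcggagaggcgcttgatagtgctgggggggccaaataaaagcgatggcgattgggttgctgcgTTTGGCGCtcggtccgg
Suz12: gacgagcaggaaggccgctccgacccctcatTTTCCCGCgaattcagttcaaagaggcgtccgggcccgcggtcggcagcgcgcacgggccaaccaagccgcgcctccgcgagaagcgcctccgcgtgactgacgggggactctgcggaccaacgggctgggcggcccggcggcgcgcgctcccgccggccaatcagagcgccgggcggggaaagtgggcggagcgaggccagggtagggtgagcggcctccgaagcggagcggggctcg
Jarid2 at the Jarid2-210 start: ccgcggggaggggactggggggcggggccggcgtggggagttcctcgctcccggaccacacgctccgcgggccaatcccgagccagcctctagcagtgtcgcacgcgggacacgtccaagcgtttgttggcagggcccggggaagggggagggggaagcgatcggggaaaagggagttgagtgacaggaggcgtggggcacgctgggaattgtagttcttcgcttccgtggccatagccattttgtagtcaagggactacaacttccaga
Jarid2 at the Jarid2-208 start: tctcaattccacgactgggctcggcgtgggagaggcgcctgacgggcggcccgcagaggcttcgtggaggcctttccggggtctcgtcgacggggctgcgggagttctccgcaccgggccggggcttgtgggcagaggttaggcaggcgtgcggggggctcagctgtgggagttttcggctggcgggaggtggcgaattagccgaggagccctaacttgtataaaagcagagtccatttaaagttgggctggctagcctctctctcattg
The 10 members matched 11 windows of 300 bases (250 before to 50 after a start), out of 32851 windows of 27025 genes in all. Their windows held a median of 30 CpG dinucleotides (17 to 41), against a median of 7 over all windows. On either strand, TTTGGCGC was in the Ezh2 window alone among the members, 3 bases after the start, and in 0.514% of all windows. TTTCCCGC was in the Suz12 window alone, 219 bases before the start, and in 1.07% of all windows. Of motifs of activity-induced factors, the CRE palindrome TGACGTCA (1.79% of all windows), the AP-1 motif TGANTCA (7.81%) and the EGR motif GCGTGGGCG (0.612%) were in 0 of 11 member windows. The searched motifs do not overlap one another in these windows, and a match describes letters only.

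Each DIV7 library held 24536056 to 30135576 estimated counts, and each DIV18 library 14510199 to 24024959. Smarcc2 was at 237 to 283 CPM (TMM-normalised counts, each library brought to 1 total) in the NT libraries and at 47.1 to 64.1 CPM in the vector libraries, whereas the addback libraries held 737 to 1340 CPM. The immediate early gene Fos rose by 7.23 on the log2 scale with KCl at DIV7 (adjusted p = 4.42e-08, edgeR) and by 3.90 over the NT, vector and WT cultures at DIV18 (adjusted p = 4.13e-06, edgeR). Neuron markers (8 genes) summed to 3916 to 4077 CPM at DIV7 and 4368 to 6094 CPM at DIV18, and no neuron marker was at 0 in any group.

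Levels between the genes were compared in TPM, kallisto's abundance scaled for transcript length. At DIV18 Cbx6, a reader subunit of PRC1, was the most abundant member at 90.5 ± 13.3 TPM (SD, n = 20 libraries) and exceeded every other member in 20 of 20 libraries. Jarid2, which helps recruit PRC2 to chromatin, followed at 13.9 ± 2.28 TPM and Rnf2, the main H2A ubiquitin ligase, at 12.7 ± 1.71 TPM. These neighbours were not separated: Jarid2 exceeded Rnf2 in 13 of 20 libraries.

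Ezh1 (10.8 ± 1.35 TPM) and the PCGF subunit Bmi1 (10.5 ± 2.08 TPM) came next, with Ezh1 above Bmi1 in 12 of 20 libraries. The PRC2 scaffold Suz12 stood at 8.66 ± 1.43 TPM and the ligase Ring1 at 7.03 ± 0.943 TPM. At the low end were Cbx7 (4.17 ± 0.757 TPM), Ezh2 (3.92 ± 0.807 TPM) and Eed, the subunit that binds methylated lysine 27 (3.61 ± 1.11 TPM). Cbx7 exceeded Ezh2 in 13 of 20 libraries, and Ezh2 exceeded Eed in 13 of 20, so the order of these 3 was not resolved. Across the 20 libraries Eed varied most, with a coefficient of variation of 30.8%, and Ezh1 least, with 12.5%. The longest coding Eed transcript, Eed-201, held at most 22.2 estimated counts in these libraries (resting WT replicate 1). The Eed level at DIV18 therefore rests mostly on its other transcripts.

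The order differed at DIV7. Cbx6 was again highest at 103 ± 11 TPM (SD, n = 4 libraries), followed by Rnf2 (47.9 ± 2.97 TPM) and Bmi1 (41.6 ± 5.49 TPM), each above the next in 4 of 4 libraries. Jarid2 (24.8 ± 3.03 TPM), Ring1 (24.2 ± 1.38 TPM), Eed (22 ± 4.73 TPM), Ezh1 (19.4 ± 2.54 TPM) and Ezh2 (17.2 ± 0.965 TPM) formed a middle group in which neighbours were not separated in all libraries. Suz12 (15.4 ± 1.43 TPM) and Cbx7 (5.12 ± 1.41 TPM) were lowest. The mean TPM of every member was lower at DIV18 than at DIV7. This includes Ezh1, Suz12, Cbx6 and Cbx7, whose normalised counts were higher at DIV18 (below). The TPM levels of the 2 days were not tested against each other. Transcripts under 200 bases held 8.06% to 9.63% of all TPM at DIV7 and 8.2% to 20.6% at DIV18.

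The ratio of Ezh1 to Ezh2 TPM within a library does not depend on that share. At DIV7 it was 1.26 and 1.30 at rest and 0.983 and 0.984 with KCl, so the summed TPM of the 2 genes was near-equal. At DIV18 it ran from 1.98 to 4.24 with a geometric mean of 2.78 over 20 libraries, above every DIV7 library. Among the DIV18 groups the depolarized NT cultures were highest, at 4.11 and 4.24, and the resting S586E cultures reached lowest, at 1.98 to 2.56. These sums include transcripts not annotated as protein-coding. In resting DIV7 cultures coding transcripts held a mean of 63.0% of the Ezh1 TPM and 46.8% of the Ezh2 TPM. In resting NT cultures they held 89.0% and 47.4%. The balance of coding transcripts alone was not tested, at DIV7 or between the days. The Ring1 to Rnf2 ratio overlapped between the days, at 0.469 to 0.531 at DIV7 and 0.416 to 0.751 at DIV18.

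Loss of Smarcc2 was examined first, by comparing knockout cultures carrying vector with NT cultures. Jarid2 was the only member called at rest (adjusted p under 0.05, edgeR), 1 of 10 where 5.9% of all genes tested were called and 2.13% were called higher. Jarid2 stood at 62.8 and 52.1 CPM in NT and at 78.1, 70.4 and 74.6 CPM in the 3 resting vector libraries. All 3 vector libraries lay above both NT libraries. The difference was 0.37 ± 0.0845 on the log2 scale (SE; 1.29-fold; adjusted p = 0.0148, edgeR with Benjamini-Hochberg adjustment). With KCl, Jarid2 was at 64.5 and 60.7 CPM in NT and at 67.1, 70.1 and 72.6 CPM in vector libraries. The order was the same without overlap, but the difference of 0.16 ± 0.0843 was not called (adjusted p = 0.364, edgeR). Over the mean of rest and KCl, Jarid2 was higher by 0.27 ± 0.0596 (adjusted p = 0.00748, edgeR), where 11.2% of all genes were called and 4.21% were called higher, and the change with KCl did not differ between the genotypes beyond its error (-0.21 ± 0.119, adjusted p = 0.618, edgeR).

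The call for Jarid2 at rest leaned on single libraries. Without NT replicate 2, the lowest of the 5, the difference was 0.24 (adjusted p = 0.38, edgeR), and without vector replicate 1 it was 0.33 (adjusted p = 0.0517, edgeR). Jarid2-208, which starts in the second Jarid2 window above, held 35.8% ± 5.54 of the Jarid2 TPM in resting NT cultures (SD, n = 2) and 36.4% ± 3.38 in resting vector cultures (n = 3), so its share was close in both. Jarid2-210 held 21.04% ± 2.21 and 11.4% ± 9.48, with 1 vector library at 0.443%.

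**Figure D1:**
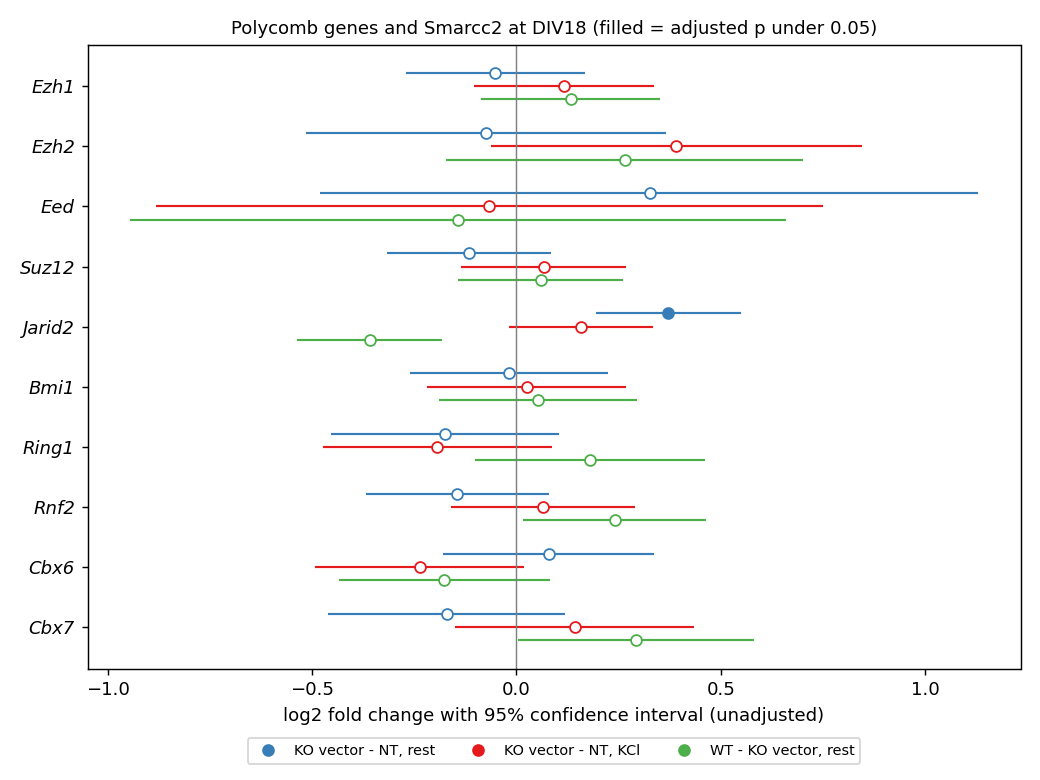
Log2 fold change (x axis) of each Polycomb gene (y axis) in Smarcc2 knockout with vector against NT at rest and with KCl, and in WT addback against vector at rest; bars are unadjusted 95% confidence intervals and filled points have an adjusted p under 0.05 (edgeR). Jarid2 is the only filled point, at 0.37 in the knockout at rest, and its WT addback point lies on the other side of 0, at -0.36.

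The other 9 members showed no call in the knockout. At rest their log2 differences ran from -0.17 (Ring1 and Cbx7) to 0.33 (Eed). For the PRC2 genes the 95% confidence intervals of the log2 difference were -0.271 to 0.168 (Ezh1), -0.514 to 0.365 (Ezh2), -0.481 to 1.13 (Eed) and -0.317 to 0.0842 (Suz12). A rise of Eed by 2-fold was therefore within the interval and a fall of that size was not, while for Ezh1 and Suz12 the intervals were far narrower. For PRC1 genes the intervals were -0.261 to 0.224 (Bmi1), -0.455 to 0.105 (Ring1), -0.369 to 0.0801 (Rnf2), -0.179 to 0.336 (Cbx6) and -0.461 to 0.119 (Cbx7). The median log2 difference of the 10 members was -0.06, beside 0.02 over all genes tested.

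With KCl, 0 of 10 members were called between vector and NT (2.67% of all genes; 0 members at an unadjusted p under 0.05 and 0 by DESeq2). Ezh2 showed the widest difference, at 5.26 and 4.59 CPM in NT and 5.79, 6.17 and 7.50 CPM in vector libraries. The groups did not overlap, but the log2 difference of 0.39 ± 0.217 was not called (adjusted p = 0.386, edgeR). Cbx6 was at 550 and 633 CPM in NT and 496, 526 and 484 CPM in vector libraries, a difference of -0.24 ± 0.122 (adjusted p = 0.346, edgeR). Libraries did not overlap for 4 of 10 members (Ezh2, Jarid2, Ring1 and Cbx6), beside 35.8% of all genes.

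Markers of non-neuronal and dividing cells moved with this comparison. At rest the 7 proliferation markers summed to 43.3 to 68.9 CPM in NT and 23.9 to 30.3 CPM in vector libraries, with 4 of 7 called lower (smallest adjusted p for Mki67, Top2a and Cdk1). The 6 astrocyte markers summed to 338 to 386 CPM in NT and 84.1 to 341 CPM in vector libraries (0 of 6 called), and the 5 progenitor markers to 172 to 188 and 39.3 to 139 CPM (0 of 5 called). The 6 oligodendrocyte-lineage markers summed to 169 to 172 and 130 to 141 CPM, with Pdgfra, Cspg4 and Sox10 lower and Sox10 at 0 in all 3 vector libraries. Microglia markers summed to 6.84 to 7.99 and 3.80 to 3.82 CPM, with Csf1r lower. Neuron markers overlapped at rest, at 4999 to 5037 and 4745 to 5450 CPM (0 of 8 called).

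With KCl the neuron markers did not overlap, at 4976 to 5379 CPM in NT and 4368 to 4603 CPM in vector libraries, and the synaptic gene Snap25 was called lower (-0.36 ± 0.0945, adjusted p = 0.0467, edgeR). Astrocyte markers summed to 242 to 560 and 118.5 to 184 CPM there (Aqp4 lower), progenitor markers to 131 to 195 and 76 to 94.3 CPM (0 of 5 called) and proliferation markers to 36.3 to 51.5 and 27.1 to 31.8 CPM (0 of 7 called). Microglia markers summed to 8.10 to 8.59 and 5.02 to 5.99 CPM (0 of 3 tested were called), and of 6 oligodendrocyte-lineage markers 2 were lower, Pdgfra and Olig2. Over the mean of both states 4 of 6 astrocyte markers (Aqp4, Aldh1l1, Sox9 and Gja1), 2 of 5 progenitor markers (Sox2 and Vim), 4 of 6 oligodendrocyte-lineage and 5 of 7 proliferation markers were called lower. Csf1r of microglia and Snap25 (-0.26 ± 0.0669, adjusted p = 0.0159, edgeR) were lower as well. The part of these shifts in the Jarid2, Ezh2 and Cbx6 differences was not tested, and in bulk RNA fewer cells of a type and less RNA per cell cannot be told apart.

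Adding back Smarcc2 gave no called member. Between WT and vector at rest, 0 of 10 members were called by edgeR, where 0.0143% of all genes were. DESeq2 called 1 member, Jarid2, among 178 genes that it called in all. An unadjusted p under 0.05 was seen for 3 members (Jarid2, Rnf2 and Cbx7), and the share of all genes under that mark was not counted. Jarid2 was at 59.3 and 56.6 CPM in the resting WT libraries, below all 3 vector libraries and within the range of the NT libraries. The log2 difference from vector was -0.36 ± 0.0846 (adjusted p = 0.136 with edgeR and 0.0189 with DESeq2), and that from NT was 0.01 ± 0.0919 (adjusted p = 0.994, edgeR; 0.105% of all genes and 0 of 10 members called, 0 also at an unadjusted p under 0.05 and by DESeq2). These contrasts share the vector or NT libraries with the knockout contrast, so the Jarid2 values are 1 set of libraries described from each side. Rnf2 was at 29.8 and 33.4 CPM in WT against 26.0, 23.5 and 31.0 CPM in vector libraries, and the groups overlapped (0.24 ± 0.107, adjusted p = 0.419, edgeR). Marker sums moved with WT against vector at rest, though 0 markers were called. Proliferation markers were at 33.3 to 35.8 CPM in WT and 23.9 to 30.3 CPM in vector libraries, microglia markers at 5.98 to 8.92 and 3.80 to 3.82 CPM, and oligodendrocyte-lineage markers at 104 to 127 and 130 to 141 CPM, each without overlap. Their part in the Jarid2 difference was not tested.

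With KCl, WT libraries held 61.2, 63.7 and 67.1 CPM of Jarid2, overlapping the vector libraries by 1 value (-0.13 ± 0.0749, adjusted p = 0.999, edgeR; 0.00955% of all genes and 0 of 10 members called, 0 also at an unadjusted p under 0.05 and by DESeq2). Over the mean of both states the Jarid2 difference was -0.24 ± 0.0564 (adjusted p = 0.0809, edgeR). There 0.138% of all genes and 0 of 10 members were called, and 2 members had an unadjusted p under 0.05. Jarid2 was called with DESeq2 (adjusted p = 0.00992), which called 343 genes in all. It was also called with the replicate number as a block (adjusted p = 0.0387, edgeR), where 189 genes were called. Against NT with KCl, 0 of 10 members were called in WT (0.201% of all genes; 0 by DESeq2). Ezh2, Rnf2 and Cbx6 had an unadjusted p under 0.05 there. Ezh2 was at 7.48, 6.80 and 8.50 CPM in WT libraries, all above the 2 NT libraries (0.62 ± 0.214, adjusted p = 0.266, edgeR). Cbx6 was at 428, 514 and 463 CPM, all below the NT libraries (-0.34 ± 0.122, adjusted p = 0.3, edgeR). The comparison of vector with NT under KCl used the same NT libraries, so the Ezh2 and Cbx6 differences of these comparisons are not separate results. In NT cultures Ezh2 was lower with KCl than at rest, without overlap and without a call (-0.45 ± 0.232, edgeR).

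The serine of Smarcc2 was examined through the S586E and S586A forms, substitutions commonly used to imitate and to prevent phosphorylation. Smarcc2 RNA was itself above WT by 0.64 ± 0.14 with S586E at rest (adjusted p = 0.114, edgeR). For S586A with KCl the difference from WT was 0.54 ± 0.136 (adjusted p = 0.338, edgeR). Neither was called, and the part of the Smarcc2 level in the member differences was not tested. At rest 0 of 10 members differed by call between S586E and WT (0% of all genes, edgeR). DESeq2 called 319 genes there and 0 members. An unadjusted p under 0.05 was seen for 4 members, and the share of all genes under that mark was not counted. Jarid2 was at 73.1, 65.5 and 69.7 CPM with S586E, above both WT libraries and overlapping the vector libraries. Its log2 difference from WT was 0.26 ± 0.0843 (adjusted p = 0.213, edgeR) and from vector -0.10 ± 0.0748 (adjusted p = 0.86, edgeR; 0.0191% of all genes and 0 of 10 members called, 1, Rnf2, at an unadjusted p under 0.05 and 0 by DESeq2).

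Cbx6 was at 763, 642 and 607 CPM with S586E against 565 and 511 CPM with WT (0.32 ± 0.123, adjusted p = 0.286, edgeR). Cbx7 was at 11.9, 14.8 and 15.2 CPM against 16.2 and 19.1 CPM (-0.34 ± 0.137, adjusted p = 0.304, edgeR), so the 2 CBX genes lay on opposite sides. Ezh1 was at 42.8, 40.1 and 37.0 CPM against 45.8 and 49.1 CPM (-0.25 ± 0.104, adjusted p = 0.323, edgeR). The libraries did not overlap for 8 of 10 members, beside 31.3% of all genes. Neuron markers summed to 5047 to 6094 CPM in S586E and 4631 to 5042 CPM in WT libraries. Oligodendrocyte-lineage markers (131 to 149.5 and 104 to 127 CPM) and proliferation markers (28.4 to 33.1 and 33.3 to 35.8 CPM) did not overlap either, and the part of these shifts was not tested.

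With KCl, 0 of 10 members differed by call between S586A and WT (0% of all genes) or between S586A and vector (0.00955% of all genes), with 0 at an unadjusted p under 0.05 and 0 by DESeq2 in both. The 95% intervals of the log2 difference from WT reached from -0.194 to 0.244 for Ezh1, from -0.0902 to 0.261 for Jarid2 and from -0.968 to 0.651 for Eed, the least precise member. S586E and S586A were not compared with each other, since they were sampled in different states.

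**Figure D2:**
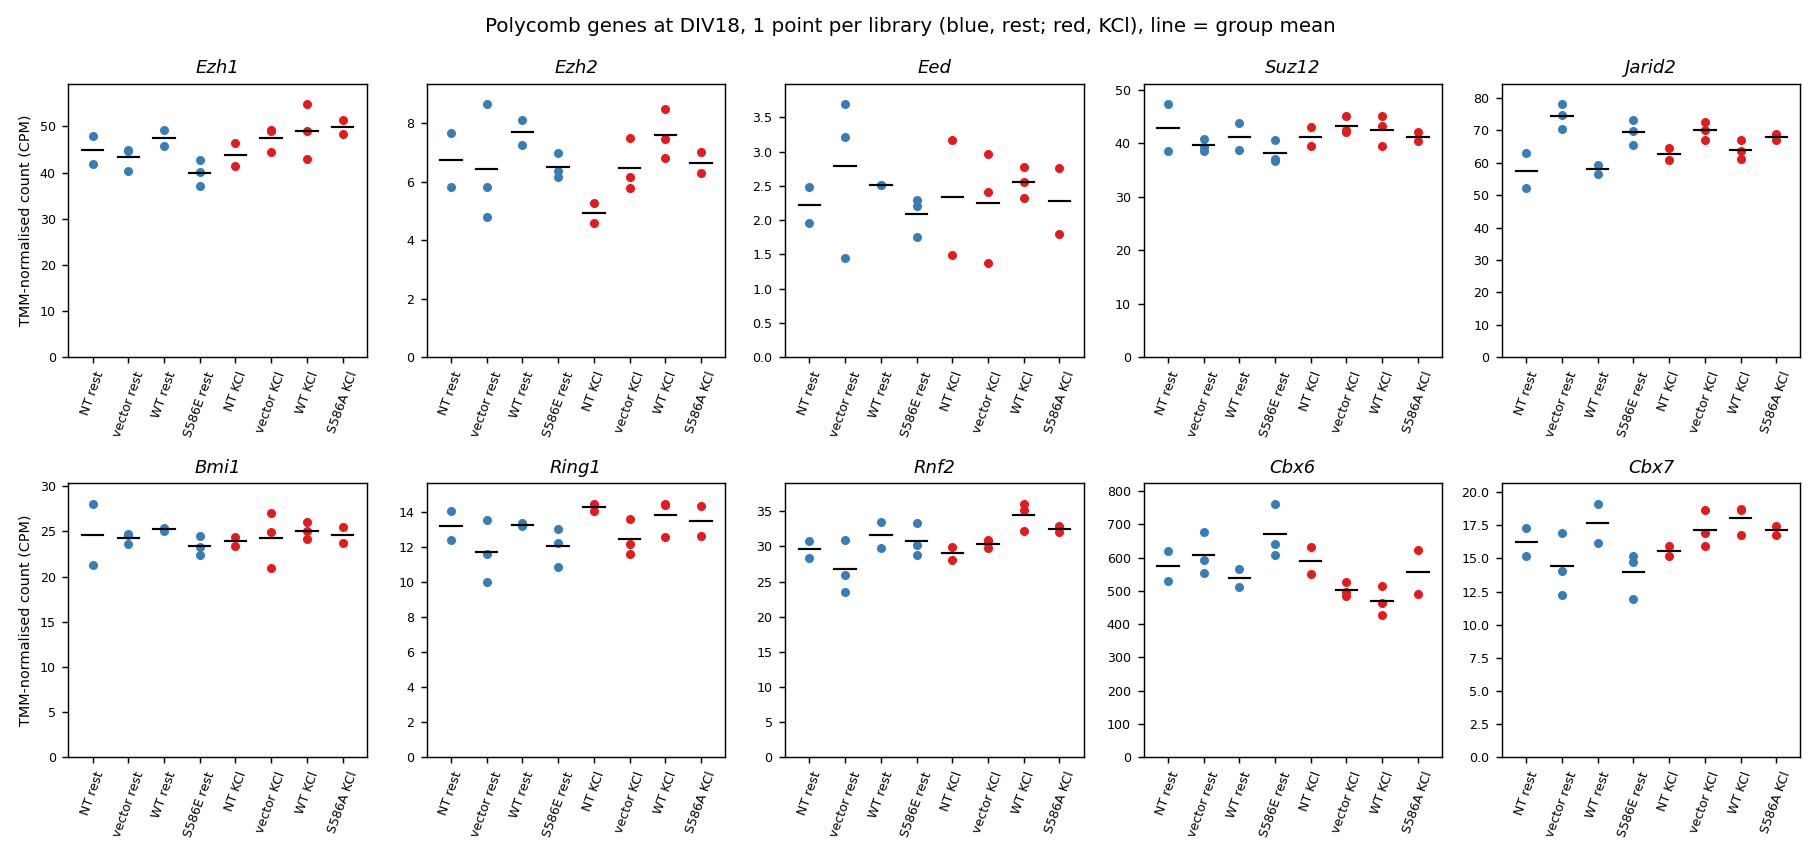
TMM-normalised counts (CPM, y axis from 0) of the 10 Polycomb genes in the 20 DIV18 libraries by group (x axis), resting groups in blue and KCl groups in red; points are libraries and lines are group means. Jarid2 in resting vector cultures sits between 70.4 and 78.1 CPM, above the resting NT and WT points, and Eed is the sparsest gene at 1.38 to 3.69 CPM.

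Depolarization was compared within each DIV18 construct. Of 10 members, 0 were called in NT (0.00955% of all genes), 0 in vector (0.0716%) and 0 in WT cultures (0.043%), and 0 in the mean of the 3 (0.449%). DESeq2 called 0 members in these 4 comparisons, and the single unadjusted p under 0.05 was that of Cbx6 in vector cultures. Cbx6 there was at 676, 594 and 554 CPM at rest and 496, 526 and 484 CPM with KCl, without overlap (-0.28 ± 0.11, adjusted p = 0.392, edgeR). In the mean of the 3 constructs the difference was -0.15 ± 0.0707 (adjusted p = 0.632, edgeR). The other mean responses ran from -0.15 (Ezh2) to 0.09 (Rnf2), and their intervals were narrow for Suz12 (-0.0773 to 0.155) and Jarid2 (-0.0421 to 0.161). The response differed by call for 0 of 10 members between vector and NT or between WT and vector (0% of all genes in each; 0 at an unadjusted p under 0.05 and 0 by DESeq2).

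At DIV7, where the KCl response was measured with a smaller spread, 2 of 10 members were called, beside 17% of all genes tested (7.34% higher and 9.67% lower). Suz12 was at 31.5 and 32.8 CPM at rest and 38.9 and 40.1 CPM with KCl, a rise of 0.30 ± 0.065 (1.23-fold; adjusted p = 0.023, edgeR). Cbx6 was at 278 and 264 CPM at rest and 234.9 and 235.5 CPM with KCl, a difference of -0.20 ± 0.044 (adjusted p = 0.0223, edgeR). In both genes the 2 KCl libraries lay outside the resting range.

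Jarid2 was at 65.5 and 67.6 CPM at rest and 58.2 and 59.3 CPM with KCl, without overlap, and was not called (-0.18 ± 0.0536, adjusted p = 0.0615, edgeR). Ezh1 (-0.19 ± 0.0884) and Cbx7 (-0.26 ± 0.125) also lay lower without overlap and were not called. Libraries did not overlap for 5 of 10 members, beside 59.1% of all genes, so that share was no higher than in the table at large. Ezh2, Bmi1, Ring1 and Rnf2 overlapped between states, with log2 differences from -0.02 to 0.09.

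**Figure D3:**
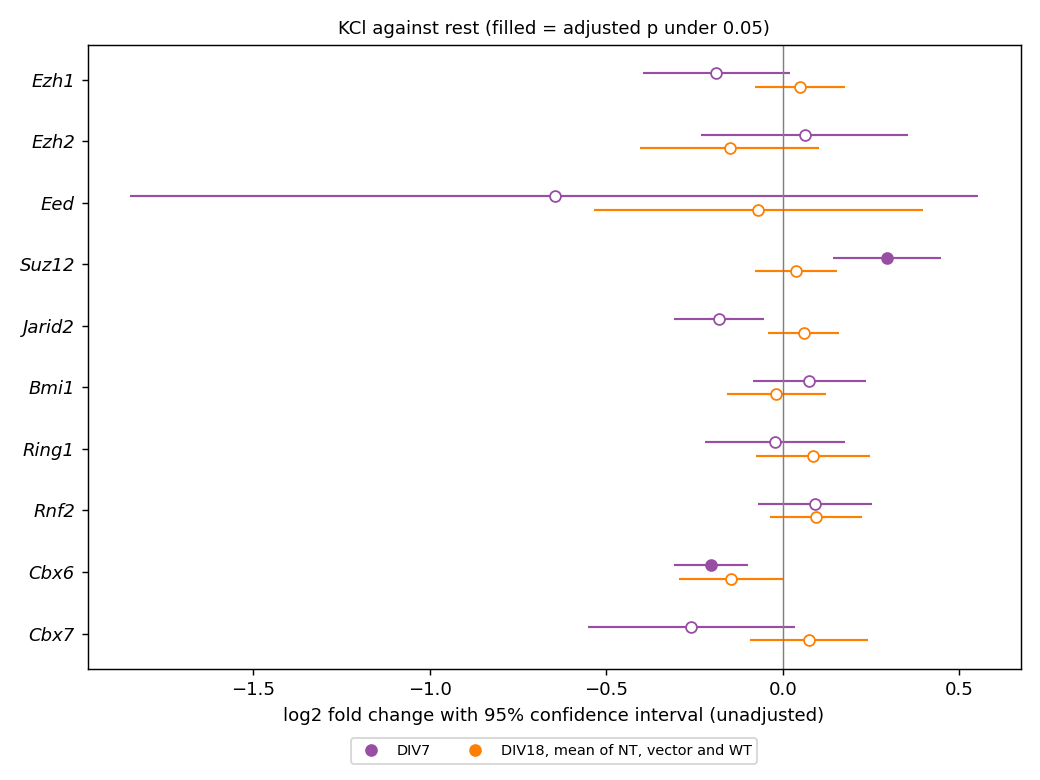
Log2 fold change of KCl against rest (x axis) for each Polycomb gene (y axis) at DIV7 and in the mean of the NT, vector and WT cultures at DIV18; bars are unadjusted 95% confidence intervals and filled points have an adjusted p under 0.05 (edgeR). At DIV7 Suz12 (0.30) and Cbx6 (-0.20) are filled, and no DIV18 point is.

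Both DIV7 calls had limits. Without 1 of the 4 libraries Suz12 kept its direction at 0.27 to 0.32 but was not called (adjusted p = 0.0559 to 0.135, edgeR), and Cbx6 was called in 1 of these 4 fits, that without resting replicate 2 (adjusted p = 0.0376 to 0.115, edgeR). With offsets for effective transcript length neither was called (Suz12 adjusted p = 0.116, Cbx6 0.0782, edgeR). Cbx6 shares its strand and most of its span with the read-through gene Npcd (chromosome 15, 79789675 to 79834237), whose level was 13.7 ± 0.484 CPM at rest and 15 ± 0.0699 CPM with KCl. With both genes summed, an alternative chosen after seeing the data, the difference was -0.185 ± 0.0428 (adjusted p = 0.0282, edgeR). Counted from protein-coding transcripts alone, Cbx6 differed by -0.10 (adjusted p = 0.202, edgeR). Astrocyte markers summed to 264 to 292 CPM at rest and 232 to 250 CPM with KCl, without overlap, with Gfap and Slc1a3 lower and Sox9 higher. Progenitor markers summed to 143 to 145.5 and 154.6 to 154.8 CPM, also without overlap, with Hes5 lower (-3.82 ± 0.32, adjusted p = 0.000777, edgeR) and Vim higher. Neuron markers overlapped in sum, at 3939 to 4003 and 3916 to 4077 CPM, with Tubb3 lower (-0.53 ± 0.0483, adjusted p = 0.00104, edgeR) and Map2 higher (0.20 ± 0.0299, adjusted p = 0.00669, edgeR). The part of these markers was not tested.

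Eed could not be read at DIV7, and its place in the TPM order of that day is uncertain too. It was at 3.54 and 13.2 CPM at rest and at 5.21 and 5.36 CPM with KCl. The high library, resting replicate 2, held 227 estimated counts of the transcript Eed-201, against 1.98 in resting replicate 1 and 3.13 and 1.45 with KCl. With it the KCl difference of Eed was -0.65 ± 0.508 (adjusted p = 0.439, edgeR), and without it 0.57 (adjusted p = 0.117, edgeR). Without resting replicate 1 it was -1.32. With no filter on low counts the difference over all 4 libraries was called (-0.65, adjusted p = 0.00122, edgeR), where 4896 genes were called in all, against 3371 with the filter.

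The 2 culture days were compared through NT at DIV18 and wild-type at DIV7, in a joint fit of these 8 libraries, and the CPM values of this fit are given here. At rest 8 of 10 members were called, 4 higher and 4 lower at DIV18, beside 60.6% of all genes (30% higher and 30.6% lower). The median log2 difference was -0.06 for the members and -0.03 over all genes. Of PRC2, Ezh1 and Suz12 were higher and Ezh2 and Eed lower at DIV18. Of PRC1, both CBX genes were higher and Bmi1 and Rnf2 lower. These directions hold for TMM-normalised counts. In mean TPM the 4 genes called higher were lower in resting NT than in resting DIV7 cultures. Ezh1 was at 21.46 TPM at DIV7 and 10.95 in NT, and Suz12 at 14.25 and 9.86. Cbx6 was at 111.8 and 99.1 TPM, and Cbx7 at 5.60 and 4.29. With KCl the mean TPM of Cbx6 was higher in NT, at 94.0 and 99.2. The source of the difference between the measures was not tested.

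Ezh1 was at 28.2 and 29.8 CPM at DIV7 and 45.1 and 51.0 CPM at DIV18 (0.73 ± 0.102, 1.66-fold; adjusted p = 0.000211, edgeR). Ezh2 was at 11.2 and 13.3 CPM at DIV7 and 6.27 and 8.16 CPM at DIV18 (-0.76 ± 0.173, 0.589-fold; adjusted p = 0.00397, edgeR). The 2 catalytic subunits thus moved to opposite sides, each without overlap, and did so with KCl too, where Ezh1 differed by 0.89 ± 0.103 (adjusted p = 5.66e-05, edgeR) and Ezh2 by -1.27 ± 0.18 (adjusted p = 0.000222, edgeR). Suz12 was at 28.9 and 30.1 CPM at DIV7 and 41.4 and 50.4 CPM at DIV18 (0.64 ± 0.1, adjusted p = 0.000434, edgeR). With KCl the Suz12 difference was 0.29 ± 0.0995 (adjusted p = 0.0279 with edgeR and 0.0739 with DESeq2).

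Eed was at 3.25 and 12.1 CPM at DIV7 and 2.10 and 2.64 CPM at DIV18, called at rest (-1.69 ± 0.552, adjusted p = 0.0246, edgeR) and not with KCl (-0.93 ± 0.561, adjusted p = 0.175, edgeR). With KCl it was called in 3 of 11 alternatives: without the low-count filter (adjusted p = 0.000873), with effective-length offsets (0.0365) and with only the groups compared (0.0475, edgeR in each). Without the DIV7 library high in Eed-201 the resting difference was -0.47 (adjusted p = 0.373, edgeR), and it was not called without either NT library (adjusted p = 0.122 and 0.0736, edgeR). Jarid2 overlapped at rest, at 60.1 and 62.0 CPM against 67.7 and 55.4 CPM (0.01 ± 0.093, adjusted p = 0.918, edgeR), and was called in 1 of 11 alternatives, that with effective-length offsets (0.267, adjusted p = 0.024, edgeR). With KCl it was at 53.5 and 54.5 CPM at DIV7 and 69.4 and 65.7 CPM at DIV18 (0.32 ± 0.0933, adjusted p = 0.0134, edgeR), a call lost without either DIV7 library or without NT replicate 1 (adjusted p = 0.108, 0.0705 and 0.07, edgeR), as was that of Suz12 (adjusted p = 0.205, 0.126 and 0.144, edgeR). The difference between these 2 results, 0.31 ± 0.132, was not called (adjusted p = 0.295, edgeR).

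Cbx6 showed the largest rise among the 10 genes at rest, from 255 and 242 CPM at DIV7 to 668 and 565 CPM at DIV18 (1.31 ± 0.0969, 2.48-fold; adjusted p = 3.05e-06, edgeR), and 1.30 ± 0.0862 with Npcd added. Cbx7 was at 8.05 and 7.28 CPM at DIV7 and 16.3 and 18.4 CPM at DIV18 (1.18 ± 0.128, 2.26-fold; adjusted p = 3.87e-05, edgeR). With KCl the differences were 1.56 ± 0.0975 for Cbx6 (adjusted p = 9.98e-07, edgeR) and 1.39 ± 0.13 for Cbx7 (adjusted p = 1.4e-05, edgeR).

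Bmi1 was at 41.9 and 44.0 CPM at DIV7 and 22.9 and 29.9 CPM at DIV18 (-0.71 ± 0.119, adjusted p = 0.000679, edgeR). Rnf2 was at 43.7 and 47.6 CPM at DIV7 and 30.6 and 32.7 CPM at DIV18 (-0.53 ± 0.0823, adjusted p = 0.000423, edgeR). Its paralog Ring1, the other H2A ligase, was at 15.5 CPM in both DIV7 libraries and at 13.4 and 15.0 CPM at DIV18, and was not called (-0.13 ± 0.109, adjusted p = 0.318, edgeR). At rest the libraries of the 2 days did not overlap for 9 of 10 members, beside 81.7% of all genes. With KCl, 8 of 10 members were called, beside 61.2% of all genes (31.1% higher and 30.2% lower): Ezh1, Suz12, Jarid2, Cbx6 and Cbx7 higher, and Ezh2, Bmi1 (-0.81 ± 0.119) and Rnf2 (-0.64 ± 0.0827) lower. The KCl response itself differed between the days by call for 0 of 10 members (2.34% of all genes; 0 by DESeq2), and Suz12 and Jarid2 had an unadjusted p under 0.05.

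**Figure D4:**
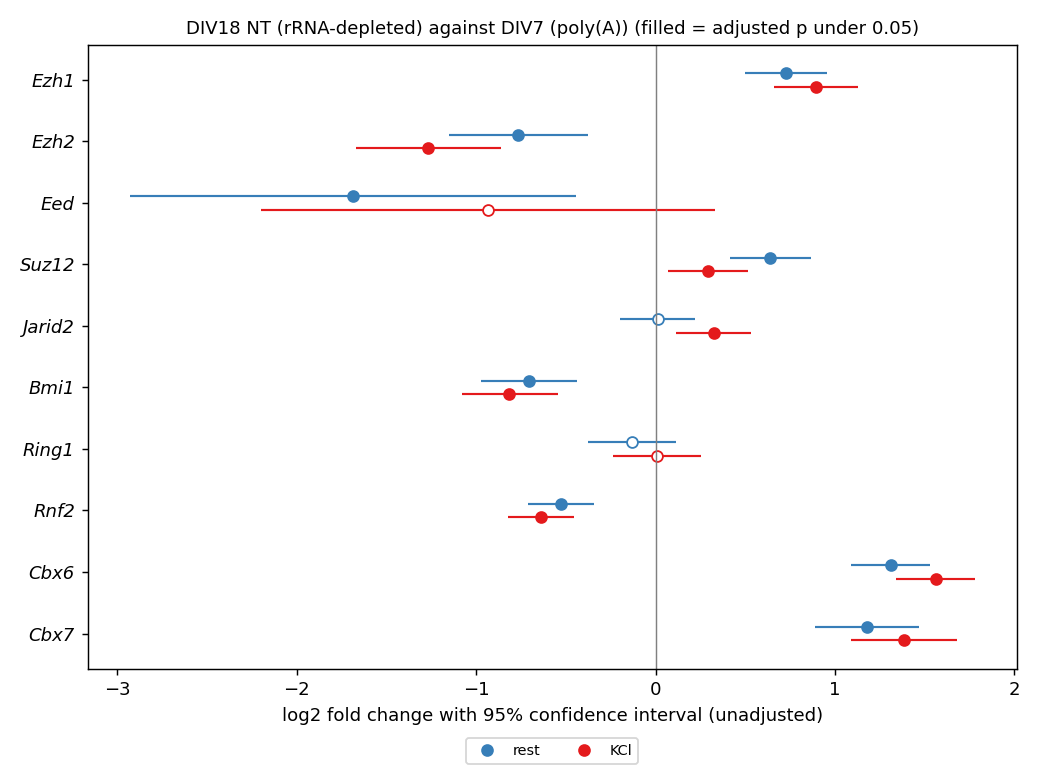
Log2 fold change of DIV18 NT against DIV7 (x axis) for each Polycomb gene (y axis) at rest and with KCl; bars are unadjusted 95% confidence intervals and filled points have an adjusted p under 0.05 (edgeR). Ezh1, Suz12, Cbx6 and Cbx7 lie to the right and Ezh2, Bmi1 and Rnf2 to the left in both states, and the libraries of the 2 days also differ in RNA selection.

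Marker genes shifted with the same comparison at rest: 5 of 6 oligodendrocyte-lineage markers were higher at DIV18, and of 8 neuron markers 4 were higher (among them Slc17a7 and Snap25) and 2 lower (Tubb3 and Map2, at -1.56 and -0.50). Of 3 microglia markers tested Csf1r was higher (3.19 ± 0.297, adjusted p = 1.4e-05, edgeR). Of 4 fibroblast or vessel markers tested 2 were higher, Pdgfrb (2.70 ± 0.311, adjusted p = 5.7e-05, edgeR) and Col1a2, and 1 lower (Pecam1). Of 5 progenitor markers Vim was higher and Hes5 lower. Of 6 astrocyte markers 3 were higher and 1 lower, and of 7 proliferation markers 1 was higher (Mki67) and 1 lower (Pcna). Their part in the member differences was not tested. Among the 13330 genes compared by pattern over the 20 DIV18 libraries, Elmod2 was the most like Ezh2, with a root mean square difference of centred log2 CPM of 0.169, and Rps3a1 stood at 0.174. The spread of Ezh2 around its own mean was 0.245 on that scale.

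The split of each gene among its transcripts is given next. Ring1-201, the protein-coding Ring1 transcript, held 37.2% and 35.8% of the Ring1 TPM at rest and 56.2% and 53.3% with KCl at DIV7, and retained-intron transcripts held the rest. Summed over all transcripts Ring1 did not differ (-0.02 ± 0.0845, adjusted p = 0.896, edgeR), whereas its protein-coding counts were higher with KCl by 0.49 (adjusted p = 0.031, edgeR). The retained-intron transcript Ring1-203 had 186 and 149 estimated counts at rest and 61.9 and 63.6 with KCl. At DIV18 the Ring1-201 share was 56.8%, 45.7% and 47.7% in the resting S586E libraries, below the 66.7% and 73.5% of resting WT. Low shares were not limited to S586E, with 4.08 of 7.25 TPM in depolarized WT replicate 3. In NT cultures Ring1-201 held 4.81 of 7.68 and 5.75 of 7.87 TPM at rest. With KCl it held 6.06 of 7.00 and 4.89 of 8.24 TPM there, on either side of the resting shares, unlike at DIV7. Shares within a gene are kallisto's split of reads among overlapping transcripts, with no test run on them.

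The leading Ezh1 transcript differed between the days. Ezh1-203 held 39.7% ± 4.17 of the Ezh1 TPM in resting DIV7 cultures and 6.08% ± 7.26 in resting NT cultures, while Ezh1-202 held 0.343% ± 0.128 and 64.3% ± 3.11 (SD, n = 2 each). The split was not stable at DIV18: in S586A cultures Ezh1-203 held 41.6% ± 4.68 and Ezh1-202 26.6% ± 3.11 (SD, n = 2). Cbx6 was 74.7% ± 1.70 protein-coding at rest and 85.1% ± 2.21 with KCl at DIV7, and 94.5% ± 1.23 in resting NT cultures (n = 2 each). Cbx7 was 50.9% ± 16.2 protein-coding at rest at DIV7 and 88.9% ± 1.76 in resting NT cultures. Suz12 was mostly its coding transcript Suz12-201 throughout, at 92.6% ± 7.45 in resting DIV7 and 82.0% ± 1.29 in resting NT cultures. For Ezh2 (46.8% ± 5.73 and 47.4% ± 5.81 protein-coding) and Eed (19.6% ± 21.3 and 54.1% ± 14.2) much of the level lay in transcripts not annotated as coding.

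**Figure D5:**
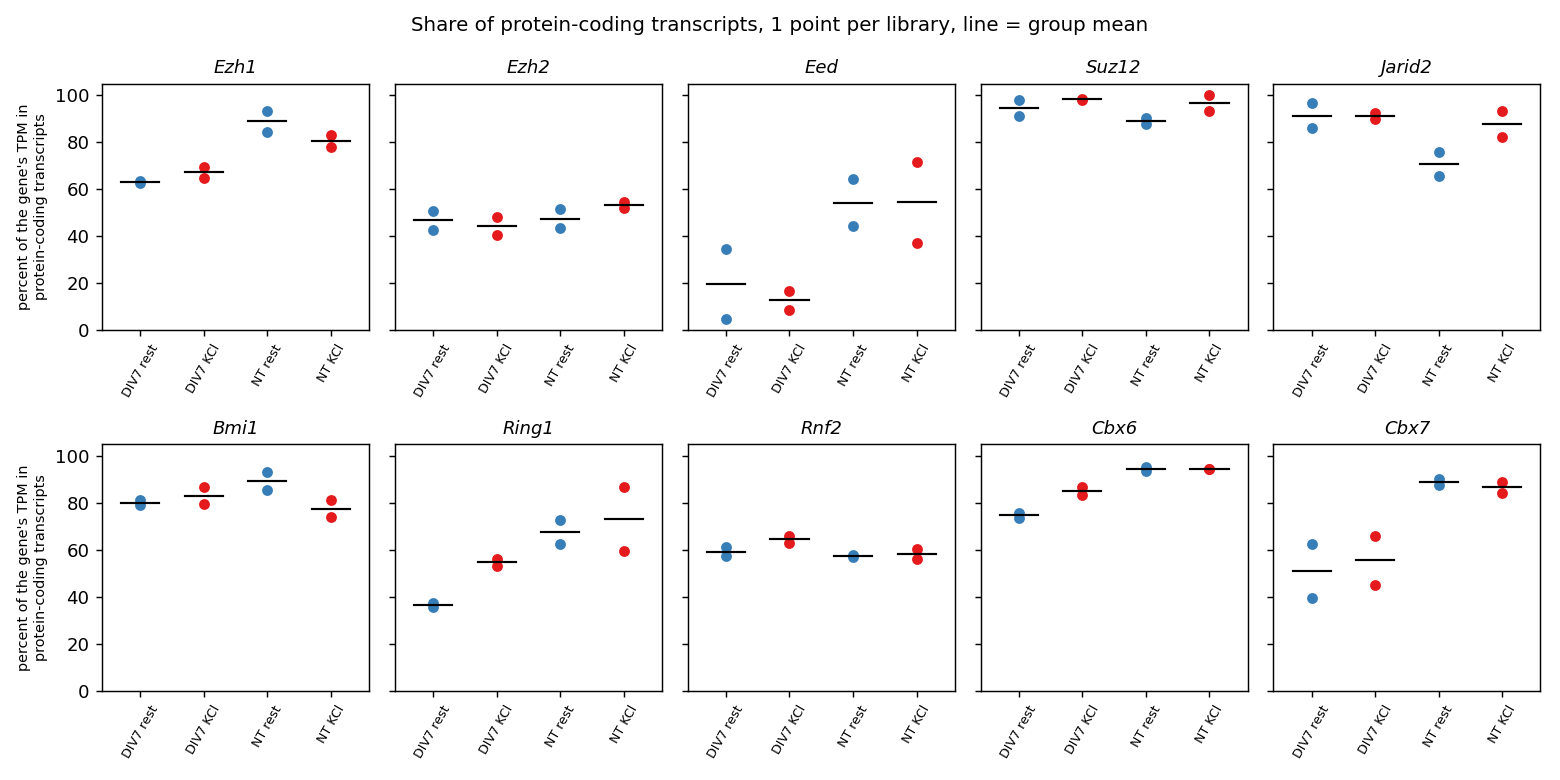
Percent of each Polycomb gene's TPM in transcripts annotated as protein-coding (y axis, 0 to 100) in the DIV7 and NT groups (x axis); points are libraries, lines are group means, resting groups are blue and KCl groups red. At DIV7 the Ring1 points separate by state, near 36.5% at rest and 54.8% with KCl, and Eed spreads widest.

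Other genes of the pathway were followed by list. With KCl at DIV7, 7 of 21 further PRC1 genes were called, 4 higher and 3 lower, beside 17% of all genes (7.34% higher and 9.67% lower), and their median of 0.03 lay near that of all genes (-0.00141). Rybp, a subunit of variant PRC1, rose from 93.9 ± 1.64 to 135 ± 4.64 CPM (SD, n = 2; 0.52 ± 0.0495, adjusted p = 0.00123, edgeR). Phc2, a Polyhomeotic subunit, fell from 59.0 ± 1.22 to 44.2 ± 1.16 CPM (-0.42 ± 0.0578, adjusted p = 0.00469, edgeR). Of 9 further PRC2 genes tested, Mtf2 alone was called (-0.45 ± 0.0798, adjusted p = 0.0111, edgeR), a Polycomb-like protein that guides PRC2 to CpG islands. Of 6 antagonists, the H2A deubiquitinase subunits Bap1 and Asxl1 to Asxl3 and the demethylases Kdm6a and Kdm6b, 0 were called.

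In the Smarcc2 knockout at rest, where 5.9% of all genes were called, 1 of 9 other PRC2 genes was called, Mtf2 (0.36 ± 0.101, adjusted p = 0.043, edgeR), at 21.7 and 19.6 CPM in NT and 26.8, 25.6 and 27 CPM in vector libraries, without overlap. Of 21 other PRC1 genes 1 was called, Auts2 (0.30 ± 0.0869, adjusted p = 0.0488, edgeR), and of 6 antagonists 0. Over the mean of both states, with 11.2% of all genes called, Mtf2 (0.30 ± 0.0716, adjusted p = 0.0118, edgeR) and Asxl3 (0.65 ± 0.152, adjusted p = 0.00951, edgeR) were higher. With KCl 0 of 9, 0 of 21 and 1 of 6 were called, beside 2.67% of all genes, the 1 being Asxl3 (0.88 ± 0.218, adjusted p = 0.0379, edgeR), at 8.20 and 6.03 CPM in NT and 11.01, 13.9 and 14.5 CPM in vector libraries.

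Genes that Polycomb complexes are known to repress outside their own tissues were mostly too low to test. Of 39 Hox genes 3 passed the low-count filter at DIV7 and 1 at DIV18, and 0 were called with KCl at DIV7 or in the knockout. Of 39 other developmental regulators 15 and 9 were tested. Gata3, a transcription factor of T cells and sensory tissues, was the only 1 called with KCl at DIV7, at 8 and 8 counts at rest and 31 and 22 with KCl (1.61 ± 0.382, adjusted p = 0.0304, edgeR). In the knockout 0 of 9 were called at rest, and with KCl Eomes was, at 4 and 17 counts in NT and 0 in all 3 vector libraries. It was not checked whether genes of this list, Eomes among them, are active in some cortical cells. Progenitor markers were also lower in these vector libraries, at 131 to 195 CPM in NT and 76 to 94.3 CPM in vector. Their part in the Eomes difference was not tested.

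Between DIV18 NT and DIV7 at rest, 8 of 9 other PRC2 genes (2 higher, 6 lower), 15 of 21 other PRC1 genes (7 higher, 8 lower) and 6 of 6 antagonists (3 and 3) were called, beside 60.6% of all genes (30% higher and 30.6% lower). Kdm2b, which brings variant PRC1 to CpG islands, was lower, at -1.92 ± 0.0743 (adjusted p = 7.12e-08, edgeR), and Pcgf2, the paralog of Bmi1, at -1.53 ± 0.0934 (adjusted p = 9.49e-07, edgeR). Phc3 was higher by 1.005 ± 0.0637 (adjusted p = 1.18e-06, edgeR). Phf1 was lower, at -1.14 ± 0.136 (adjusted p = 7.08e-05, edgeR). Asxl3 was lower, at -2.505 ± 0.194 (adjusted p = 4.18e-06, edgeR) and Asxl2 higher by 1.05 ± 0.0757 (adjusted p = 2.68e-06, edgeR), so genes of 1 family lay on opposite sides. Of the genes Polycomb is known to repress, 3 Hox genes were tested at rest and 1 was lower, Hoxb13, with 18 and 16 counts at DIV7 and 0 in both NT libraries. Of 13 other developmental regulators tested 1 was higher, Foxc1 (1.92 ± 0.353, adjusted p = 0.00116, edgeR), and 1 lower, Pax1, with 23 and 12 counts against 1 and 0. With KCl 1 of the 13 was higher, Tbx2 (1.85 ± 0.629, adjusted p = 0.0283, edgeR), and 2 were lower, and Hoxb13 was the 1 Hox gene called, lower again.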

How the data were processed

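Per the labels, RNA of 24 cultures of mouse cortical neurons was sequenced as paired-end libraries, poly(A)-selected at DIV7 and rRNA-depleted at DIV18. FastQC, cutadapt and kallisto are named in the submitters' processing notes, with versions, index and strand setting not given in the sources used here. Each deposited table lists, per the file headers, an estimated count, a TPM value and an effective length for 142552 transcripts. Of these, 141429 (99.2%) matched GENCODE M21 (GRCm38). The 1123 others, at most 0.467% of counts, were left out. The estimated counts of a gene's transcripts were added up, then rounded. TPM values, as the authors deposited them, were summed per gene for levels between genes. Reads of overlapping genes, such as Cbx6 and Npcd, rest on kallisto's assignment.

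edgeR 4.0.16 in R 4.3.3 (TMM, low-count filter, quasi-likelihood F test, Benjamini-Hochberg adjustment over all genes tested, calls at an adjusted p under 0.05) was fitted to the 4 DIV7 libraries (19822 genes), the 20 DIV18 libraries (20940) and the 8 NT and DIV7 libraries (21072), giving 22 comparisons. A ± value after a log2 difference is its SE. Where members are counted at an unadjusted p under 0.05, the share of all genes under that mark was not counted. DIV18 totals were lower than DIV7 totals, and counts limit precision most for Eed. DESeq2 1.42.0, median-of-ratios size factors, no filter, a replicate block, effective-length offsets, protein-coding transcripts alone, only the groups compared and leaving out each replicate were alternatives, and the sum of Cbx6 and Npcd was added after seeing the data. The code was tested on simulated counts.

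The members and gene lists were chosen with earlier results of these data known. Named beside the 10 members were Smarcc2 and Fos as label checks, at most 3 called genes of smallest adjusted p per list and comparison, marker lists by counts, and the 3 genes closest to Ezh2 in centred log2 CPM. Some genes that this rule names are not reported here, though counts over the lists include them. Pax1, Hoxb13, Foxc1, Tbx2 and the single marker genes were named after their values were seen. The labels give replicate numbers without saying that equal numbers share an embryo. Deviations of same-numbered libraries correlated above 0.1 in all 3 pairs for S586E against vector at rest (0.293, 0.103 and 0.291). They did so for WT against vector with KCl (0.106, 0.114 and 0.236). In these comparisons the block changed no member call. Every pair of WT against NT was also above 0.1, at rest (0.104) and with KCl (0.111 and 0.12). With 2 libraries in each group, as in these resting cultures, both pairs give the same value by construction. Over the mean of states the block called Jarid2 in WT against vector, as given above.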

Additional observations from a re-analysis of the deposited data

Results flagged for a closer look

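In 2 other PRC1 genes the KCl response differed between DIV18 NT and DIV7 cultures by the interaction term (edgeR, Benjamini-Hochberg adjustment). Of all 21072 genes tested, 494 (2.34%) were called there. Phc2, a Polyhomeotic subunit, went from 54.15 to 40.6 CPM with KCl at DIV7 and from 49.9 to 56.6 CPM in NT, a difference of 0.597 ± 0.112 in log2 response (SE; adjusted p = 0.0322, edgeR). Cbx2, a reader subunit, went from 4.55 to 1.37 CPM at DIV7 and from 2.95 to 3.46 CPM in NT, a difference of 1.96 ± 0.382 (adjusted p = 0.0355, edgeR). Culture day and RNA selection cannot be told apart here. The alternatives of processing, leaving out a replicate among them, were run for the members only, so neither result was checked in that way.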

How the results depend on the processing

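Of 220 member comparisons 20 were called. Of these, 13 kept the call in every alternative named under the processing except the sum of Cbx6 and Npcd, which was compared for Cbx6 alone. All 13 were differences between DIV18 NT and DIV7, where 60.6% of all genes were called at rest and 61.2% with KCl. No call after KCl or in the knockout was kept in every alternative. Of the 200 not called, 11 were called and 102 changed sign under some alternative. With KCl at DIV7 the 2 calls became 4 with the replicate block (Ezh1, Suz12, Jarid2 and Cbx6), 0 with effective-length offsets, and 0 to 1 when a replicate was left out. The knockout call at rest became 0 with offsets and 0 with only the groups compared, and leaving out a replicate gave 0 to 1 (0 without NT replicate 2 or vector replicate 1). Over the mean of states leaving out a replicate gave 0 to 1 (0 without resting or depolarized NT replicate 2). Jarid2 in WT against vector was 1 call with DESeq2 at rest, and 1 each with DESeq2 and with the replicate block over the mean of states. Without the low-count filter Cbx6 was 1 call in WT against NT with KCl (-0.345) and 1 in S586E against WT (0.315). That setting called 704 genes in the first comparison, against 42 with the filter. In the second it called 782 genes, against 0. Signs reversed for Eed with KCl at DIV7 (-1.32 to 0.572 when a replicate was left out, 0.572 without resting replicate 2), for Ring1 there (0.487 from protein-coding transcripts, -0.0646 to 0.0205 when a replicate was left out), for Jarid2 between days at rest (-0.0184 without the filter, -0.085 from protein-coding transcripts, -0.00632 without DIV7 replicate 1, and -0.141 to 0.144 when a replicate was left out), for Ring1 between days at rest (0.375 from protein-coding transcripts, adjusted p = 0.0379, edgeR) and for Eed between days with KCl (0.177 from protein-coding transcripts). The cause was not tested. At DIV7 the replicate block called 5857 genes in all against 3371, although same-numbered libraries correlated at 0.0201; for S586E against vector it called 14 against 4. With 2 or 3 libraries a group, and Eed at few counts, small differences were not detectable.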
